A study of Caenorhabditis elegans with 20 samples.

Results

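The genes described here encode subunits and assembly factors of oxidative phosphorylation in the nematode Caenorhabditis elegans. They are the rows of the deposited count table whose names start with nuo-, nduo-, ndfl-, sdha-, sdhb-, ctb-, ctc-, cox-, cco- or atp-. This rule took 28 of 28301 rows, 12 encoded in the mitochondrial genome and 16 in the nucleus. RNA came from whole animals at the L4 larval stage, grown in liquid culture. Wild type is the strain N2 in the column names. The 4 groups, of 5 libraries each, were wild type with 0.1% DMSO, wild type with 2.5 µM F17, nhr-131 mutants with 0.1% DMSO and nhr-131 mutants with 2.5 µM F17, all exposed for 4 h. F17 is a compound known here only by its code, nhr-131 encodes a nuclear hormone receptor, and the allele is not given in the sources used here. The comparisons ask how F17 and the loss of nhr-131 change transcript levels.

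Oxidative phosphorylation passes electrons from NADH and succinate through complexes I to IV of the inner mitochondrial membrane to oxygen, and the proton gradient this builds drives ATP synthesis by complex V. Complexes I, III, IV and V mix subunits made from the mitochondrial genome with subunits made from nuclear genes, whereas every subunit of complex II is nuclear. The worm's mitochondrial genes are transcribed from 1 strand and cut into single messages. In worms, knockdown of some nuclear subunits during larval growth, cco-1 among them, is a standard way to induce the mitochondrial unfolded protein response and to extend lifespan.

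Libraries are named a to e within a group, after the columns of the table, and held 12836432 to 26908383 counts. Ribosomal RNA took 2.24% to 27.5% of them. The nhr-131 row held 77 to 196 counts in each wild-type library and 0 to 4 in each mutant library. Each gene of the muscle, intestine, germline, sperm, neuron and hypodermis marker lists that the table holds was detected. Levels are given as CPM, a gene's counts scaled to a fixed total, with library sizes scaled by TMM, a method that balances most genes between libraries, and errors are SD over the 5 libraries of a group. In RNA from whole animals, fewer cells of a type and less RNA per cell cannot be told apart.

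Mitochondrial-encoded transcripts were dominated by a few genes. ctc-1, the catalytic subunit 1 of complex IV, made up 43.8% ± 1.84 of the mitochondrial-encoded counts (SD over 20 libraries). ctb-1, the cytochrome b of complex III, made up 17% ± 1.75, and ctc-3, the core subunit 3 of complex IV, 16.6% ± 1.55. The 8 genes at 1% or more held 99.87% on average. These 8 also included ctc-2, the copper-binding subunit 2 of complex IV, at 5.91%, and atp-6, the proton-channel subunit of complex V, at 2.48%. The complex I membrane subunits nduo-1, nduo-4 and nduo-5 held 5.41%, 4.68% and 4.02%. The other 4, all complex I membrane subunits (nduo-2, nduo-3, nduo-6 and ndfl-4), together held at most 0.338% in any library.

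Per length, the median over 20 libraries was 2840 CPM per kilobase of coding length for ctc-1, 2122 for ctc-3 and 1560 for ctb-1. It was 875 for ctc-2 and 624.9 for nduo-1, and 430.3 for atp-6 and 428 for nduo-4, a pair that did not differ beyond its spread. nduo-5 followed at 262.9 CPM per kilobase. The scarce genes had medians of 16.8 (nduo-6), 3.34 (nduo-3), 2.23 (nduo-2) and 1.05 CPM per kilobase (ndfl-4). On the mitochondrial map nduo-2 lies between atp-6 and ctb-1, and nduo-3 lies between a ribosomal RNA gene and nduo-5. The libraries were made from poly(A)-selected RNA, and whether the tails of these messages differ was not tested.

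**Figure D1:**
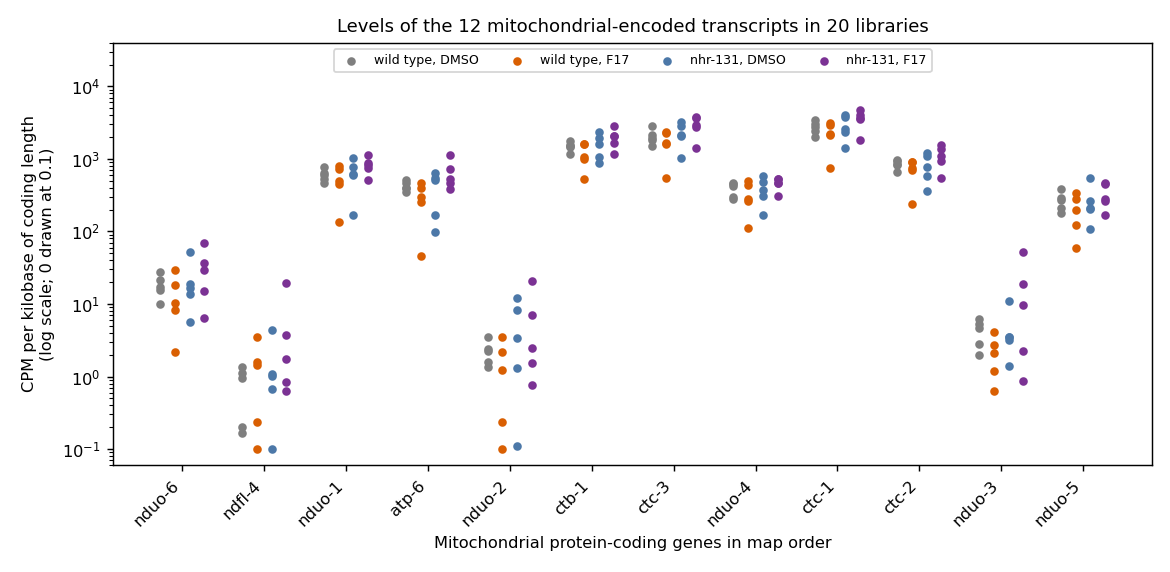
Levels of the 12 mitochondrial-encoded transcripts in CPM per kilobase of coding length (log axis) in map order; each point is 1 of 20 libraries, coloured by group. The medians of nduo-6, ndfl-4, nduo-2 and nduo-3, at most 16.8 CPM per kilobase, lie under those of the other 8, and values of 0 are drawn at 0.1.

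Among the 14 nuclear-encoded genes of the name rule with a known length, and per kilobase of exon, complex V held the most abundant pair. atp-5, the stalk subunit d, had a median of 882 CPM per kilobase and atp-3, the stalk subunit that carries oligomycin sensitivity, 522. The iron-sulphur subunit of complex II, sdhb-1, had 270.0 CPM per kilobase. The complex I genes nuo-1 (NADH-binding flavoprotein), nuo-4 (accessory), nuo-5 (iron-sulphur), nuo-2 (peripheral arm) and nuo-6 (accessory) lay between 138.9 and 235 CPM per kilobase. sdha-1, the main flavoprotein gene of complex II, had 141 CPM per kilobase, against 13.4 for its paralog sdha-2. Reads shared between these paralogs could not be checked, so their split is uncertain. The complex IV assembly factors, cox-15 and cox-10 for heme A and cox-11 for copper, were lower, with medians of 39.3, 10.46 and 21.1 CPM per kilobase. cco-1 and cco-2, small complex IV subunits, had no length to divide by and had medians of 244 and 498 CPM.

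The row for atp-2, the catalytic beta subunit of complex V, stood out by its low count. It held 932 counts over all 20 libraries, a median of 1.18 CPM per kilobase. The row of atp-1 (listed as H28O16.1), the alpha subunit of the same catalytic head, held 1199950 counts, a median of 1609 CPM per kilobase. The gene models used for counting are not known here, and the atp-2 row may not stand for the level of the whole transcript.

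The summed counts of each class were compared with the total of the library, and the group ranges overlapped for both classes. Mitochondrial-encoded genes took 0.962% ± 0.102 of all counts in wild type with DMSO and 0.849% ± 0.367 in wild type with F17 (SD, n = 5). In the mutant they took 0.990% ± 0.383 with DMSO and 1.28% ± 0.2697 with F17. Nuclear-encoded genes took 0.384% ± 0.0391, 0.398% ± 0.0162, 0.402% ± 0.0432 and 0.395% ± 0.0365 in the same order. The SD of the mitochondrial share was thus between 2.6 and 22.6 times that of the nuclear share, which was itself smaller. In wild type with DMSO the SD ratio of 2.6 was near the mean ratio of mitochondrial to nuclear counts, 2.53. In the other groups, in the same order, the SD ratios were 22.6, 8.87 and 7.39 and the mean count ratios 2.11, 2.52 and 3.30.

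A pair of libraries stood apart by their mitochondrial share. Library a of wild type with F17 had a share of 0.244%, against 0.835% to 1.16% in the other 4 of its group. Library a of nhr-131 with DMSO had 0.376%, against 0.863% to 1.32% in the other 4. Their summed mitochondrial-encoded counts were 0.655 and 0.897 times their nuclear-encoded counts, whereas this ratio was at least 2.01 in each of the other 18 libraries. Without them the group shares were 1.001% ± 0.164 in wild type with F17 and 1.14% ± 0.196 in nhr-131 with DMSO (n = 4). The pair held 14403626 and 14298430 counts, near the low end of all libraries. Ribosomal RNA took 22.53% of the first, against 4.656% to 8.695% in the other 4 of its group. It took 18.16% of the second, against 3.746% to 27.45% in the other 4, and the library at 27.45% had a mitochondrial share of 1.188%. What sets these libraries apart was not tested, so mitochondrial-encoded medians and the main estimates are given with and without them.

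**Figure D2:**
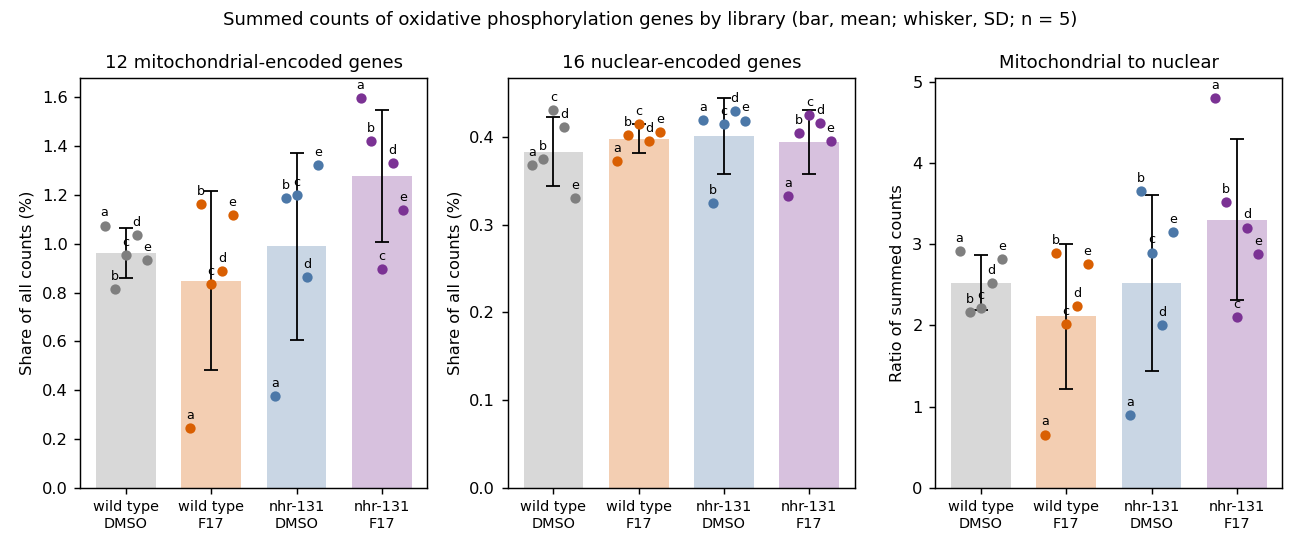
Share of all counts (%) held by the mitochondrial-encoded and the nuclear-encoded genes, and the ratio of their summed counts, in each library (points with library letters), with group means (bars) and SD (whiskers, n = 5). Library a of wild type with F17 (0.244%) and library a of nhr-131 with DMSO (0.376%) lie under all others in the mitochondrial share but not in the nuclear share.

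Within this pair of libraries the drop ran through nearly the whole mitochondrial set. In library a of wild type with F17, 11 of 12 mitochondrial-encoded genes were the lowest of their group, at a median of 0.279 times the median of the other 4 libraries. The exception, nduo-3, was inside their range. In library a of nhr-131 with DMSO, 10 of 12 were the lowest, at a median of 0.399 times, and ctc-2 and atp-6 were inside the range of the others. The libraries were picked for this total, so these counts describe them and test nothing.

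Nuclear-encoded genes did not share the drop. On the TMM scale, 8 of 16 were the highest of their group in library a of wild type with F17 and 15 of 16 in library a of nhr-131 with DMSO. On totals without ribosomal RNA these counts were 9 and 8 of 16, with medians of 1.103 and 1.078 times the median of the other 4 libraries. Library a of nhr-131 with DMSO had the lowest TMM factor of any library, 0.743, and a low factor raises the CPM of every gene. The share of all tested genes that were highest in these libraries was not computed. These counts thus describe the libraries and mark no trait of the genes. cco-1, subunit 5B of complex IV, reached 368.6 CPM against 184.0 to 255.9 CPM in the other 4 libraries of wild type with F17, and 474.8 against 174.3 to 242.9 CPM in nhr-131 with DMSO. cco-2, subunit 5A, reached 667.0 against 415.4 to 525.7 CPM, and 887.4 against 372.3 to 488.9 CPM. Both genes were thus above their group's other libraries where ctc-1 and ctc-3 of the same complex were lowest. ctc-2 was lowest in the first library only. High values were not limited to complex IV. Summed tricarboxylic acid cycle genes reached 8968 against 7258 to 8053 CPM in wild type with F17, and 10240 against 6567 to 8655 CPM in nhr-131 with DMSO. In the latter library the intestine markers were also highest (24300 against 9108 to 17350 CPM), whereas the germline markers were lowest (139.2 against 171.8 to 638.5 CPM). A cytochrome c oxidase subunit gene outside the name rule, cox-7C (listed as F26E4.6 and named after its values were seen), was 2.07 and 3.32 times the median of the others. Of 6927 genes with a mean of at least 10 CPM, 36 were below 0.5 times the median of the others in both libraries. They included 6 of the 8 mitochondrial-encoded genes at that level and 0 of 15 nuclear-encoded ones. On the high side, 255 of the 6927 genes (3.68%) were above 1.4 times the median of the others in both libraries. They included 1 of the 15 nuclear-encoded genes, cco-1.

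Other libraries differed in single mitochondrial genes. In library d of nhr-131 with DMSO, atp-6 made up 0.743% of mitochondrial-encoded counts and ctc-2 3.18%, the lowest shares of all 20 libraries, while ctc-3 had its highest share there, 20.2%. In library d of nhr-131 with F17, atp-6 held 4.77%, its highest share, and nduo-3 was also highest. The genes atp-6 and ctc-2 are not neighbours on the mitochondrial map.

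**Figure D3:**
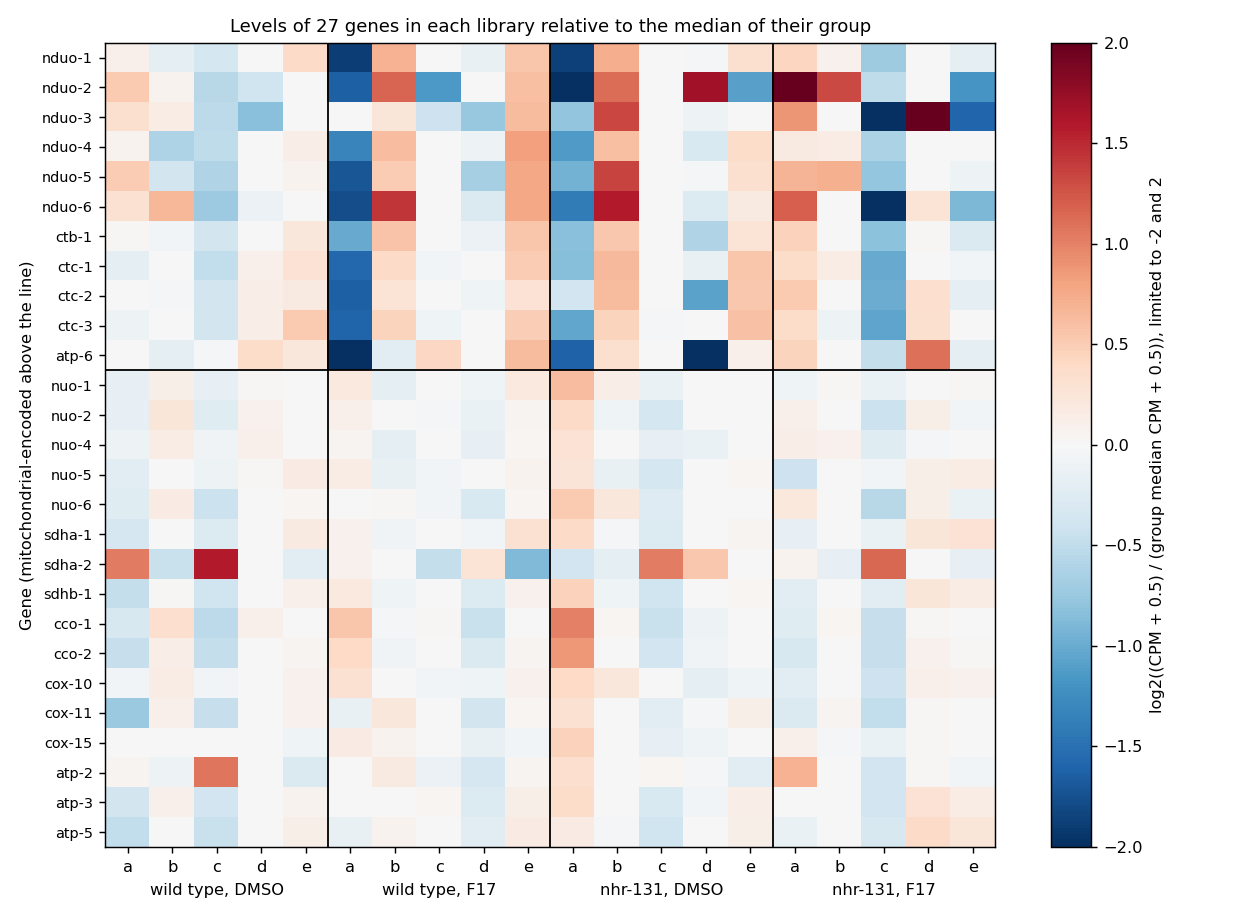
Level of 27 genes in each of 20 libraries relative to the median of its group, as log2((CPM + 0.5) / (group median + 0.5)), with red above and blue below and the colour limited to -2 and 2. The mitochondrial-encoded genes, above the line, are mostly blue in library a of wild type with F17 and of nhr-131 with DMSO, and the nuclear-encoded genes are paler, with the strongest colours at sdha-2, atp-2, cco-1 and cco-2.

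The spread within a group was larger for mitochondrial-encoded genes. Their coefficient of variation, averaged over the 4 groups, had a median of 40.7% and ran from 30.7% (ctb-1) to 111% (ndfl-4). The nuclear-encoded genes had a median of 15.4%, from 8.78% (cox-15) to 46.4% (sdha-2). These averages include the pair of low libraries. In wild type with DMSO, which held neither, the 8 abundant mitochondrial genes ran from 14.2% (ctc-2) to 29.7% (nduo-5). The nuclear-encoded genes there ran from 2.65% (cox-15) to 64.8% (sdha-2), with cco-1 at 23.3%. With CPM computed on totals without ribosomal RNA in place of the TMM scale, the medians were 39.8% and 8.84%.

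All genes were tested together by edgeR's quasi-likelihood test in 1 model of the 4 groups, and calls were made at an adjusted p under 0.05 (Benjamini-Hochberg) over the 13795 genes that passed a filter on low counts. Of the 28 genes, 27 passed the filter. ndfl-4, the ND4L subunit of complex I, did not, with 0 to 77 counts per library. The 4 pairwise comparisons share libraries with each other, so their estimates are not independent.

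The first comparison was F17 against DMSO in wild type. Of the 27 tested genes, 0 were called, where 0.928% of all tested genes were. An unadjusted p under 0.05 was found for 1 of the 27, and for 7.6% of all tested genes. DESeq2's Wald test and limma-voom also called 0. The 11 mitochondrial-encoded estimates were all below 0, with a median log2 fold change of -0.37 against -0.01 over all genes, and their intervals all included 0. The median was -0.13 without the pair of low libraries. The nuclear-encoded genes had a median of -0.04.

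ctc-1 showed the pattern of the abundant mitochondrial genes. It had 3873, 4390, 3123, 4726 and 5353 CPM in libraries a to e of wild type with DMSO, and 1183, 4573, 3361, 3497 and 4979 CPM with F17. Library a with F17 was the lowest of all, and the other 4 lay within the range of the DMSO libraries. Its log2 fold change was -0.29 (SE 0.33, 95% interval -0.98 to 0.41, edgeR adjusted p = 0.914), and -0.09 without the low library pair.

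atp-2 had the smallest unadjusted p among the 27. Its levels were 2.35, 2.04, 5.23, 2.23 and 1.75 CPM with DMSO and 1.72, 2.003, 1.54, 1.27 and 1.81 CPM with F17. Library c with DMSO was far above the rest, and the groups overlapped. The log2 fold change was -0.71 (SE 0.30, edgeR adjusted p = 0.565), and -0.33 when DMSO library c was left out.

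The second comparison was F17 against DMSO in nhr-131. Again 0 of 27 genes were called by edgeR, DESeq2 and limma-voom, where 0.478% of all tested genes were called by edgeR. Of the 27, 1 had an unadjusted p under 0.05, where 3.07% of all tested genes had. All 11 mitochondrial-encoded estimates were above 0, with a median of 0.38, and 0.20 without the pair of low libraries. The nuclear-encoded genes had a median of -0.08, and the largest nuclear difference in complex IV was that of cox-10 at -0.26 (SE 0.13, edgeR adjusted p = 1).

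ctc-1 had 2242, 6336, 4062, 3672 and 5960 CPM in libraries a to e of nhr-131 with DMSO, and 7448, 6409, 2885, 5794 and 5607 CPM with F17. Library a was the lowest of the first group and the highest of the second, and the groups overlapped. Its log2 fold change was 0.34 (SE 0.33, 95% interval -0.36 to 1.03, edgeR adjusted p = 1), and 0.18 without the low library pair. The gene with an unadjusted p under 0.05 was nduo-3, with 5, 55, 28, 27 and 15 counts in DMSO and 109, 89, 6, 358 and 13 with F17. The groups overlapped, and the log2 fold change was 1.88 (SE 0.79, edgeR adjusted p = 1). It was 0.81 without library d of the mutant with F17, 0.98 in limma-voom and 1.68 without the low library pair.

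The difference between these F17 effects was tested directly as an interaction. It called 0 of 27 genes with edgeR, DESeq2 and limma-voom, where edgeR called 0.246% of all tested genes. Among the 27, 2 genes had an unadjusted p under 0.05, where 3.2% of all tested genes had. The mitochondrial-encoded median was 0.71, against -0.07 for the nuclear-encoded genes and -0.02 over all genes, and without the pair of low libraries it was 0.40. The estimates for nduo-3 and atp-2, the genes with an unadjusted p under 0.05, were 2.85 (SE 1.13) and 0.91 (SE 0.42), both at an edgeR adjusted p of 1. For nduo-3 it was 1.78 without library d of nhr-131 with F17 and 2.66 without the low library pair. For atp-2 it was 0.53 without library c of wild type with DMSO and 0.49 without 6 libraries described with sdha-2.

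The fourth comparison set nhr-131 against wild type without F17. edgeR, DESeq2 and limma-voom called 0 of 27 genes, where edgeR called 0.029% of all tested genes. Among the 27, 1 gene had an unadjusted p under 0.05, where 4.17% of all tested genes had. The median was 0.06 for mitochondrial-encoded genes and 0.13 for nuclear-encoded ones, and -0.005 over all genes. Without the pair of low libraries the mitochondrial-encoded median was 0.26. The gene under 0.05 was cox-11, a copper chaperone for complex IV, with 11.6, 21.1, 14.1, 19.7 and 20.9 CPM in wild type and 27.2, 21.9, 18.9, 21.6 and 23.8 CPM in nhr-131. Libraries a and c of wild type were the low ones, and the groups overlapped. The log2 fold change was 0.38 (SE 0.17, edgeR adjusted p = 0.985). It was 0.19 without the 6 libraries described with sdha-2, libraries a and c of wild type among them.

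With F17, the comparison of nhr-131 with wild type gave the highest mitochondrial-encoded median of the 4 pairwise comparisons, with and without the pair of low libraries. edgeR called 0 of 27 genes, where 1.28% of all tested genes were called, and 6 of 27 had an unadjusted p under 0.05, where 15% of all tested genes had. All 11 mitochondrial-encoded estimates were above 0, with a median of 0.76, and 0.60 without the pair of low libraries. The nuclear-encoded median was 0.06 and that of all genes -0.03. The 6 genes were nduo-3, nduo-2, ctb-1, ctc-3, atp-6 and atp-2. limma-voom called 0, and DESeq2 called 1, nduo-3, where DESeq2 called 537 of all 13795 tested genes.

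nduo-3, a membrane subunit of complex I, held 9, 17, 10, 5 and 25 counts in libraries a to e of wild type with F17 and 109, 89, 6, 358 and 13 counts in nhr-131 with F17. Libraries a, b and d of the mutant were above every wild-type library, and c and e were within their range. In CPM the means were 0.723 ± 0.454 and 5.63 ± 7.03 (SD, n = 5). The log2 fold change was 2.97 (SE 0.84, 95% interval 1.22 to 4.72, edgeR adjusted p = 0.0942). It was 1.90 without library d of the mutant (adjusted p = 0.352). DESeq2's Wald test gave an adjusted p of 0.00707, and edgeR gave 0.0225 without library c of the mutant. In limma-voom the estimate was 2.09 (adjusted p = 0.302).

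The more abundant mitochondrial genes had smaller estimates. ctb-1 had 595.7, 1773, 1194, 1099 and 1759 CPM in wild type with F17 and 3134, 2267, 1284, 2311 and 1849 CPM in nhr-131 with F17. Library c of the mutant was within the wild-type range and the other 4 were above it. The log2 fold change was 0.76 (SE 0.30, edgeR adjusted p = 0.237), and 0.60 without the low library pair. atp-6 had 27.6, 153.5, 238.5, 179.3 and 277.5 CPM in wild type and 432.4, 318.2, 228.9, 684.3 and 278.0 CPM in the mutant, with library c again inside the wild-type range. Its log2 fold change was 1.15 (SE 0.51, edgeR adjusted p = 0.297), and 0.90 without the low library pair. For ctc-3 the estimate was 0.79 (SE 0.35, edgeR adjusted p = 0.299), with group means of 1301 ± 559 CPM in wild type and 2241 ± 735 CPM in the mutant. It was 0.59 without the low library pair.

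nduo-2, another scarce complex I membrane subunit, had 0, 2.98, 0.203, 1.06 and 1.87 CPM in wild type with F17 and 17.8, 6.01, 1.32, 2.09 and 0.642 CPM in nhr-131 with F17. Libraries a and b of the mutant were above the wild-type range and the other 3 within it. The log2 fold change was 2.18 (SE 1.003, edgeR adjusted p = 0.314). It was 1.91 without the low library pair and 1.05 without library a of the mutant, the lowest of the alternatives, which reached 2.82.

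The other mitochondrial-encoded genes had unadjusted p-values of at least 0.05 in this comparison. nduo-1 had 457 ± 231 CPM in wild type with F17 and 716 ± 195 in the mutant, nduo-4 388 ± 187 and 566 ± 113, and nduo-5 315 ± 177 and 517 ± 205 (SD, n = 5). nduo-6 had 5.91 ± 4.55 and 13.7 ± 10.6 CPM and ctc-2 489 ± 192 and 762 ± 270.4 CPM. In each of these pairs the mean was higher in the mutant and the groups overlapped.

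**Figure D4:**
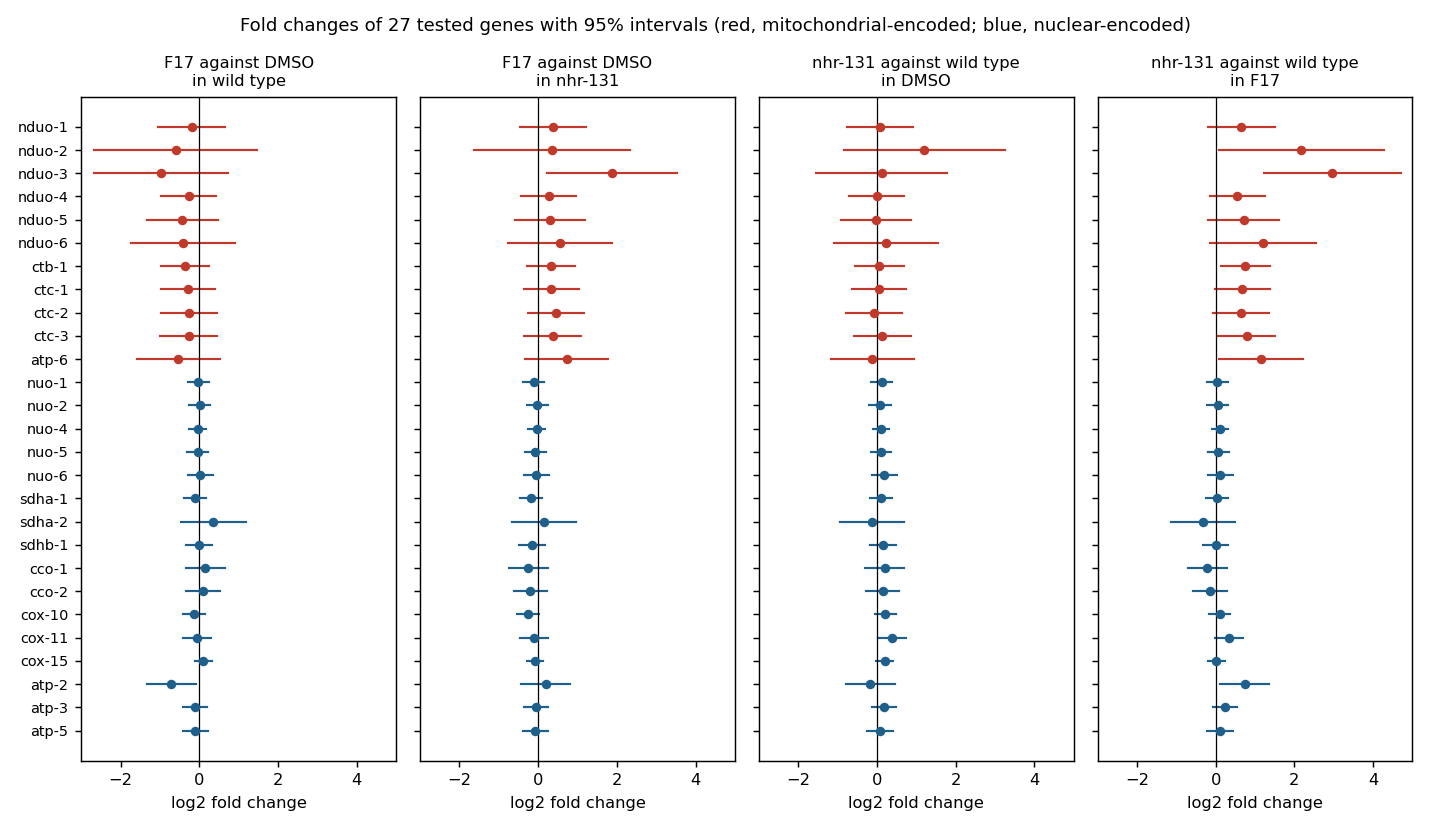
Log2 fold changes (points) and 95% intervals (lines) of the 27 tested genes in the 4 pairwise comparisons, mitochondrial-encoded in red and nuclear-encoded in blue. No gene passed the adjusted threshold in edgeR, and nduo-3 with F17 (2.97) is the farthest from 0.

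Averaged over both genotypes, the F17 effect called 0 of 27 genes with edgeR, DESeq2 and limma-voom, where edgeR called 1.03% of all tested genes. Over all tested genes, 6.31% had an unadjusted p under 0.05. Of the 27, the gene under 0.05 was cox-10, which makes heme O on the way to the heme A of complex IV, at -0.20 (SE 0.09, edgeR adjusted p = 0.781). The mitochondrial-encoded median was 0.05, or 0.07 without the pair of low libraries, and the nuclear-encoded median -0.07.

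For the nuclear-encoded genes the intervals give a range of changes for each gene taken alone, not a joint bound on the set. Leaving aside atp-2 and sdha-2, the 95% intervals of the other 14 lay within 0.742-fold to 1.56-fold for F17 in wild type and within 0.756-fold to 1.23-fold for the mean effect of F17. For F17 in nhr-131 they lay within 0.593-fold to 1.21-fold. For nhr-131 against wild type they lay within 0.812-fold to 1.66-fold in DMSO and 0.613-fold to 1.62-fold in F17. The difference of the F17 effects had intervals within 0.464-fold to 1.405-fold. With atp-2 and sdha-2 the intervals of all 16 reached from -1.34 to 1.17 on the log2 scale for F17 in wild type. The wider intervals of the 11 mitochondrial-encoded genes reached from -2.68 to 1.47 on the log2 scale for F17 in wild type.

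The groups also overlapped by library. In none of the 4 pairwise comparisons did any of the 28 genes have all 5 libraries of one group above all 5 of the other. Among all tested genes, 1.45% were higher and 0.906% lower without overlap for F17 in wild type, and 0.703% and 0.174% for F17 in nhr-131. For nhr-131 against wild type the shares were 0.493% and 0.384% in DMSO and 1.72% and 2.15% in F17.

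sdha-2 varied most among the nuclear-encoded genes, in a way its paralog did not. It had 42.5, 14.95, 62.9, 20.5 and 17.8 CPM in libraries a to e of wild type with DMSO, and 47.5, 44.8, 32.1, 54.4 and 24.2 CPM in wild type with F17. The mutant libraries held 18.1, 20.5, 48.8, 34.6 and 23.7 CPM with DMSO and 28, 23.7, 59.4, 26.6 and 23.8 CPM with F17. High values stood at libraries a and c of the first group, a, b and d of the second, and c of each mutant group. sdha-1 ranged from 278.8 to 467.7 CPM and had none of its group's highest values in those libraries.

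The libraries with high sdha-2 were compared by a score of 11 genes of the transition from L4 to adult, such as vitellogenin genes. In 6 libraries that score lay between -1.24 and -0.643, and in the other 14 between -0.36 and 0.993. These 6, called younger here as in an earlier analysis of these data, were libraries a and c of the wild-type DMSO group, a and d of the wild-type F17 group, and c of each mutant group. sdha-2 lay between 42.5 and 62.9 CPM in them and between 14.95 and 44.8 CPM in the others. The library at 44.8 CPM, b of wild type with F17, had a score of 0.634, within the range of the other 14. The summed level of the 17 germline markers moved with it, from 638.5 to 1026 CPM in the 6 and from 108.5 to 845.1 CPM in the others, and the part of either in the sdha-2 level was not tested. The germline list and the score have the same highest log2 fold change for F17 in wild type, 1.346. They thus appear to share a gene and are not separate measures. The other nuclear-encoded genes went the other way on the TMM scale. Leaving aside atp-2, 14 of 14 had a lower median in the 6 libraries, at 0.69 to 0.926 times that in the others. On totals without ribosomal RNA 9 of 14 did, at 0.757 to 1.147 times (median 0.963). With all libraries, F17 in wild type gave a log2 fold change of 0.35 (SE 0.39, edgeR adjusted p = 0.91) for sdha-2. Without the 6 libraries it was 0.91 (edgeR adjusted p = 0.0322), with 3 libraries a group in wild type. In that setting edgeR called 906 of 13499 tested genes, against 0.928% of all tested genes with all libraries. The DMSO libraries left out, a and c, held the highest sdha-2 levels of that group, 42.5 and 62.9 CPM.

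**Figure D5:**
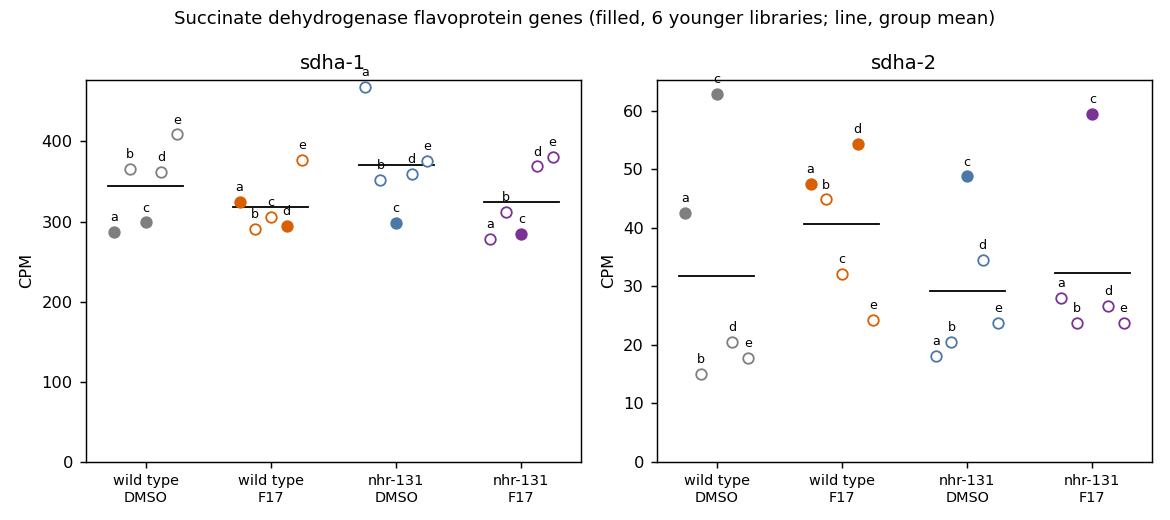
Levels (CPM) of the flavoprotein genes of complex II, sdha-1 and sdha-2, in each library (points with letters; line, group mean; filled, the 6 younger libraries). All 6 filled points lie at 42.5 CPM or more for sdha-2, with 1 open point, library b of wild type with F17, among them.

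The genes around these pathways were examined by name. Of 48 tested respiratory-chain genes outside the name rule (other subunits, cytochrome c and assembly factors), edgeR called 0 in each of the 6 comparisons, and between 0 and 3 had an unadjusted p under 0.05. Their median log2 fold change was 0.01 for F17 in wild type, -0.11 for F17 in nhr-131 and 0.04 for nhr-131 against wild type in F17. The 48 include 8 subunit and assembly genes listed under sequence names, added after the table was seen. edgeR also called 0 of 19 tricarboxylic acid cycle genes and 0 of 10 genes of the mitochondrial stress response in every comparison, where 0 to 1 and 0 to 2 of them had an unadjusted p under 0.05. Over all tested genes, 3.07% to 15% had an unadjusted p under 0.05, depending on the comparison.

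Ubiquinone carries electrons from complexes I and II to III, and of 8 tested genes for its synthesis 1 fell with F17 in wild type. This was coq-1, the enzyme that builds its isoprenoid tail. It had 45.8, 55.8, 46.8, 57.6 and 54.6 CPM in wild type with DMSO and 36.4, 42.01, 41.9, 40.9 and 42.7 CPM with F17. In nhr-131 it had 54.96, 59.3, 54.7, 50.4 and 58.2 CPM with DMSO and 52.5, 55.1, 48.9, 48.5 and 53.3 CPM with F17. The 5 libraries of wild type with F17 were below all the others. The log2 fold change was -0.35 (SE 0.083, edgeR adjusted p = 0.0468) for F17 in wild type, where 0.928% of all tested genes were called. With F17 present, nhr-131 was above wild type by 0.34 (SE 0.083, edgeR adjusted p = 0.0478), a comparison that shares the F17-treated wild-type libraries and called 1.28% of all tested genes. These calls lie at the threshold: the adjusted p ran from 0.00136 to 0.287 over 32 alternatives for the first, of which 10 kept the call, and from 0.00125 to 0.155 for the second, of which 13 did. Without the pair of low libraries it was 0.117 and 0.109, with estimates of -0.34 and 0.33. The direct interaction test called 0 of the 8 ubiquinone genes (lowest edgeR adjusted p = 0.9998). A difference between the genotypes in the response of coq-1 to F17 was thus not called.

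Markers of other tissues moved with the comparisons as follows. The germline markers had a median log2 fold change of 0.80 and the sperm markers 0.90 for F17 in wild type. edgeR called 0 of 16 and 0 of 12 tested, and 5 and 3 had an unadjusted p under 0.05, where 7.6% of all tested genes had. For nhr-131 against wild type in F17 these medians were -0.83 and -0.73. The 12 muscle markers, of a tissue rich in mitochondria, had medians of -0.16 and -0.08 in the same comparisons. The 13 neuron markers had medians of -0.09 and -0.09, with 0 called. The 9 intestine markers in the table had medians of -0.28 and 0.12, and the 9 tested hypodermis markers -0.05 and -0.18, and -0.36 for F17 in nhr-131.

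The marker lists held 2 called genes. mtl-2, a metallothionein gene of the intestine list, rose with F17 in wild type (log2 fold change 2.68, SE 0.46, edgeR adjusted p = 0.00238) and in the mean over both genotypes (1.44, SE 0.32, edgeR adjusted p = 0.0232). With F17 present it was lower in nhr-131 than in wild type, at -2.18 (SE 0.45, edgeR adjusted p = 0.0184). dpy-7, a cuticle collagen gene of the hypodermis list, was also lower there, at -1.26 (SE 0.27, edgeR adjusted p = 0.0261). The interaction test called 0 genes of the intestine list (lowest edgeR adjusted p = 0.239) and 0 of the hypodermis list (0.9998). A difference between the F17 effects was thus not called for mtl-2 or dpy-7. The part of tissue make-up in the levels of oxidative phosphorylation genes was not tested.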

How the data were processed

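The deposited values were raw counts of reads per gene, made by the authors with TopHat2 and HTSeq per the submitters' processing notes. For versions, genome build and annotation: not given in the sources used here. Per the labels' protocols, libraries were strand-specific and made from poly(A) RNA. The analysis used edgeR 4.0.16 in R 4.3.3 (filterByExpr with a minimum count of 10, TMM, robust quasi-likelihood fit of 4 groups, 16 residual degrees of freedom). DESeq2 1.42.0 and limma 3.58.1 (voom) were alternatives. Each SE was taken from the estimate and the F statistic. The fit was tested on simulated data.

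Members and gene lists were chosen with earlier results of these data known. The text names the mitochondrial-encoded genes, genes that were called (list genes such as coq-1 included), and in each comparison and complex the nuclear gene with the largest difference; cco-2, nuo and stalk genes, sdha-1 and cox-15 are named for their levels, after their values were seen. RefSeq names and Ensembl exon lengths of assembly WBcel235 served for 26 of 28 genes; coordinates and sequences were not used here. No 2 libraries of a group were copies. Letters a to e could not be tied to the labels' replicate numbers. The libraries are biological replicates per the labels, and p-values measure the spread between them.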

Additional observations from a re-analysis of the deposited data

Results flagged for a closer look

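In 9 of 104 groups of 5 libraries examined (23 named genes and the totals), the highest or lowest library lay far from the rest of its group. The rule used marks about 1 in 20 groups of independent, normally distributed values. These groups share libraries, and some genes were named after their values were seen, so the rates cannot be compared. Library b of nhr-131 with DMSO had the lowest nuclear-encoded share of its group, 0.3251%, and the highest levels of nduo-3 (3.724 CPM), nduo-6 (22.75 CPM) and ndfl-4 (1.016 CPM). Ribosomal RNA took 27.45% of this library, the most of any. On totals without it the library's nuclear-encoded share was 0.4481%, inside its group's range of 0.4308% to 0.5123%. Library a of nhr-131 with F17 had the highest ndfl-4, 4.53 CPM. These are the scarce complex I messages of the mitochondrial genome.

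Among nuclear-encoded genes, atp-2 was high in library c of wild type with DMSO (5.227 CPM) and cco-1 in library a of nhr-131 with DMSO (474.8 CPM). sdha-2 was high in library c of nhr-131 with F17 (59.43 CPM). nuo-6 was low in library d of wild type with F17 (72.97 CPM).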

How the results depend on the processing

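The count of genes called stayed at 0 in 4 of the 6 comparisons under every setting run. Without the 6 younger libraries 1 gene, sdha-2, was called for F17 in wild type. For nhr-131 against wild type in F17, 1 gene, nduo-3, was called with DESeq2, which called 537 of 13795 tested genes. Leaving out each library in turn gave 0 to 1. Leaving out libraries gave mitochondrial-encoded medians of -0.51 to -0.11 for F17 in wild type, 0.19 to 0.61 for F17 in nhr-131, -0.19 to 0.27 for the genotypes in DMSO and 0.57 to 0.96 in F17. On a denominator without ribosomal RNA the mitochondrial share in wild type with DMSO was 1.11%, and the nuclear shares were 0.440%, 0.444%, 0.459% and 0.443% in the 4 groups. With the library letter as a replicate block no call changed and the mitochondrial-encoded medians were -0.42 and 0.46 for F17 in wild type and nhr-131. Not every same-letter pair correlated above 0.1 (17 of 30, and 55 of 120 other-letter pairs; medians 0.198 and 0.057), so the letters were not taken as pairs. Scarce genes (nduo-2, nduo-3, ndfl-4) are limited by depth. The cause of these changes was not tested.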
